A study of Ovis aries with 27 samples.

Results

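AGTR1 encodes the type 1 angiotensin receptor, and its transcript was followed in the heart septum of fetal sheep whose mothers had been infused with cortisol or vehicle. The members were chosen by gene name: every probe that the scanner files name as AGTR1 was taken, whatever its values. There was 1 such probe, A_70_P030096, among 15008 probes on the array, and AGTR1 was 1 of 830 genes that could be given a symbol. Each of the 27 fetuses was measured on 1 single-colour Agilent array with Cy3-labelled cRNA, so n counts fetuses. The groups were cortisol at 140 d of gestation (n = 7), control at 140 d (n = 8), cortisol at 130 d (n = 6) and control at 130 d (n = 6).

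Cortisol ewes received a continuous infusion of 1 mg/kg/day and control ewes received vehicle. The older cohort was collected between 139 and 144 d, near term, after about 25 d of infusion from about day 115. The younger cohort was collected between 129 and 131 d after about 10 d of infusion from about day 120, although another of the labels gives a start near day 115 for every ewe. Each age was a cohort of its own with its own length of infusion, so an effect of age cannot be told apart from one of cohort or of infusion length. The hormone was given to the ewe, and the labels state no fetal cortisol level. The 8 older controls came from 7 ewes because of 1 set of twins. The labels do not say which fetuses were the twins, so each was counted as independent. The comparisons ask whether maternal cortisol altered the transcript at either age, and whether its level differed between the ages.

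The renin-angiotensin system raises blood pressure and retains salt. Angiotensinogen is cut by renin to angiotensin I, angiotensin-converting enzyme makes angiotensin II from it, and angiotensin II acts on a pair of receptors. The type 1 receptor couples mainly to Gq and drives vasoconstriction, aldosterone release and growth of heart muscle and fibroblasts. The type 2 receptor, encoded by AGTR2, is known for high levels in fetal tissues and for actions that often oppose those of the type 1 receptor. Glucocorticoids are known to regulate several genes of the system.

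The probes were assigned to the receptors by their annotation, not by alignment of their sequences. The AGTR1 probe is a 60-base oligonucleotide that starts at base 2053 of the transcript it was designed from, and its first 30 bases are given here. AGTR2 was named AT2 in the files and had a pair of probes, which start at bases 718 and 604 of their transcript and are called probes 1 and 2. The sequences come from the deposited scanner files.
AGTR1: ccagtcccaggtagtcgtgttagttttatt
AGTR2 probe 1: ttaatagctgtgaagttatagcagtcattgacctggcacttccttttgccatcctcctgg
AGTR2 probe 2: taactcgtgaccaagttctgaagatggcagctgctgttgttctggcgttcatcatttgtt
No other probe on the array (0 probes) shared a stretch of 20 bases with the AGTR1 probe. The files give no mapped genome position for it.

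Between 77.0% and 87.0% of the spots on an array were well above background, no spot was saturated (0 spots), and the 75th percentile of spot intensity lay between 601.6 and 1273. In the older cohort those percentiles were 601.6 to 1079 with cortisol and 757.3 to 954.4 in controls, and in the younger cohort they were 976.5 to 1195 with cortisol and 976.7 to 1273 in controls. Levels below are log2 of the processed spot intensity minus log2 of that array's 75th percentile, so a level of 1 is an intensity of 2 times the percentile. The precision is limited by the number of arrays. Myoglobin (MB), the oxygen store of muscle, was the named gene of a 19-gene cardiomyocyte list on the array, and it was well above background on 27 of 27 arrays.

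The AGTR1 probe was well above background on 27 of 27 arrays, with intensities between 774.7 and 3227. In cortisol fetuses at 140 d the lowest level was 0.36 (replicate 4), the median 0.95 and the highest 1.78 (replicate 6), and replicate 5, at 0.44, was also low. In control fetuses at 140 d the lowest level was 0.35 (replicate 1), the median 1.28 and the highest 1.79 (replicate 2). Both older groups held arrays near the bottom and near the top of the whole range, and their ranges nearly coincided. In cortisol fetuses at 130 d the lowest level was 0.70 (replicate 3), the median 1.16 and the highest 1.42 (replicate 6). In control fetuses at 130 d the lowest level was 0.83 (replicate 3), the median 0.95 and the highest 1.44 (replicate 5). The younger groups lay inside the range of the older ones, and replicate 5 stood above the other 5 younger controls, which reached 1.02.

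**Figure D1:**
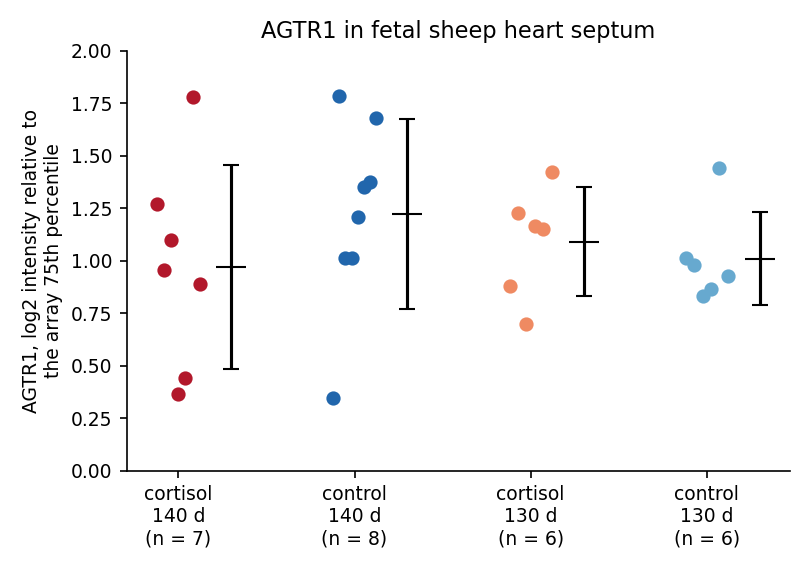
AGTR1 level on each of 27 arrays (vertical axis, log2 intensity relative to the array's 75th percentile) in the 4 groups. Points are fetuses and bars are mean ± SD; the group means lie between 0.97 and 1.22 and all the groups overlap.

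The means were ordered control at 140 d, cortisol at 130 d, control at 130 d and cortisol at 140 d, and no neighbours in that order differed beyond their spread. The mean was 0.97 ± 0.49 in cortisol fetuses at 140 d (SD, n = 7) and 1.22 ± 0.45 in control fetuses at 140 d (SD, n = 8). It was 1.09 ± 0.26 in cortisol fetuses at 130 d (SD, n = 6) and 1.01 ± 0.22 in control fetuses at 130 d (SD, n = 6). The highest level of all arrays was 2.71 times the lowest on a linear scale. The SD pooled within the 4 groups was 0.39, against a median of 0.29 over the 12770 tested probes, and 68.7% of those probes had a smaller one. Other probes that were spotted several times had a median SD between their spots on the same array of 0.085.

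Maternal cortisol was not accompanied by a detected difference in AGTR1 at either age. At 140 d the difference, cortisol minus control, was -0.25 ± 0.19 (SE), with a 95% confidence interval of -0.65 to 0.15 and an adjusted p of 0.808 (limma, Benjamini-Hochberg over 12770 probes). As a fold this is 0.840, with an interval of 0.638 to 1.11, and 5 of 7 cortisol fetuses lay below the control mean. At 130 d the difference was 0.08 ± 0.22 (SE), with an interval of -0.36 to 0.52 and a limma adjusted p of 1.00. As a fold it is 1.06, with an interval of 0.778 to 1.44, and 4 of 6 cortisol fetuses lay above the control mean. Averaged over the ages, the cortisol difference was -0.09 ± 0.14 (SE), with an interval of -0.38 to 0.21 and a limma adjusted p of 0.999. The cortisol difference at 140 d minus that at 130 d was -0.33 ± 0.29 (SE), with an interval of -0.93 to 0.26 and a limma adjusted p of 0.974.

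These values stood against a background in which limma called 0% of the 12770 probes at an adjusted p under 0.05 in each of the cortisol comparisons (0 probes). At an unadjusted p under 0.05 the share was 5.69% at 140 d (726 probes) and 3.56% at 130 d (455 probes), 2.76% for the mean over the ages (352 probes) and 5.82% for the change of the cortisol difference with age (743 probes). Of the tested probes, 25.4% had a smaller p than AGTR1 at 140 d and 64.1% had one at 130 d. The exact two-sided permutation test of AGTR1 alone gave p = 0.310 at 140 d over 6435 relabelings and p = 0.569 at 130 d over 924 relabelings. Adjusted over the 4 comparisons of a pair of groups, both were 0.603.

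Age was likewise not accompanied by a detected difference. With cortisol, the difference of 140 d minus 130 d was -0.12 ± 0.21 (SE), with an interval of -0.55 to 0.31 and a limma adjusted p of 0.757, and 4 of 7 older fetuses lay below the younger mean. The matching fold was 0.920, with an interval of 0.684 to 1.24. In controls the difference was 0.21 ± 0.20 (SE), with an interval of -0.20 to 0.63 and a limma adjusted p of 0.491, and 7 of 8 older fetuses lay above the younger mean. The matching fold was 1.16, with an interval of 0.869 to 1.54. The exact two-sided permutation tests gave p = 0.603 with cortisol over 1716 relabelings and p = 0.319 in controls over 3003 relabelings, and 0.603 for both after adjustment. The age and cortisol comparisons share groups, so their 4 values are not independent.

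Many other transcripts did pass the test between the ages. Limma called 13.5% of the tested probes with cortisol (1719 probes, 631 higher and 1088 lower at 140 d) and 19.1% in controls (2442 probes, 1248 higher and 1194 lower). The share of calls that were higher was 36.7% with cortisol and 51.1% in controls. With arrays centred on their median it was 59.3% and 70.3%, with the values the authors deposited 64.3% and 71.4%, with normexp background correction 52.2% and 60.8%, and with the percentile taken over probes detected on all arrays 32.4% and 44.2%. With normexp the number of called probes was 339 with cortisol and 536 in controls. AGTR1 was among the called probes in neither arm. A smaller p than that of AGTR1 was found for 75.2% of the tested probes with cortisol and for 61.8% in controls.

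**Figure D2:**
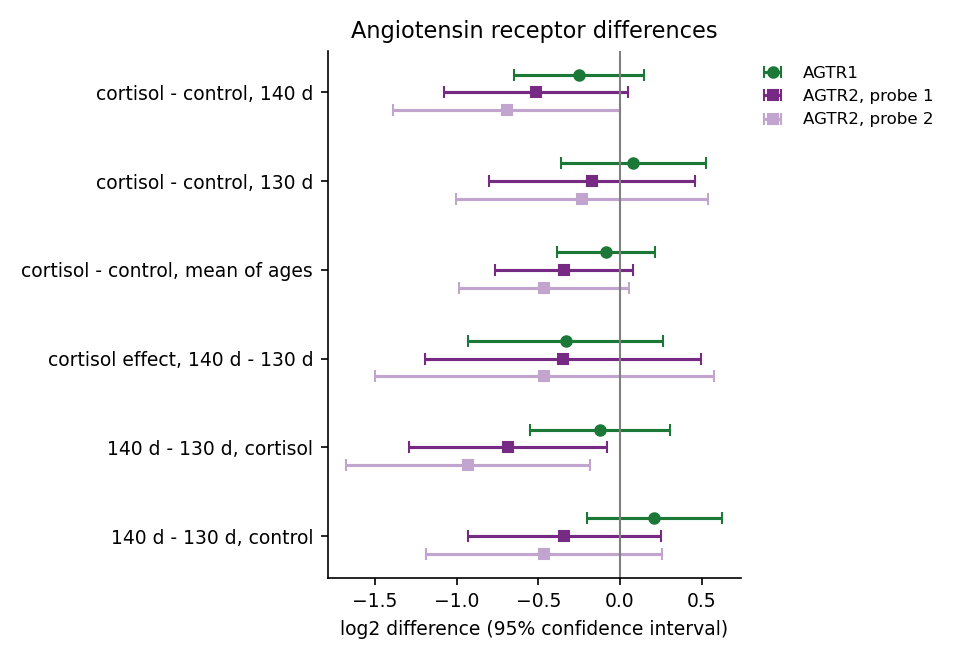
Log2 differences of AGTR1 and of AGTR2 probes 1 and 2 (horizontal axis, with 95% confidence intervals) in 6 comparisons. The 6 AGTR1 intervals include 0; 3 AGTR2 intervals lie below 0, those of 140 d minus 130 d with cortisol for both probes (adjusted p of 0.123 and 0.0868) and that of cortisol minus control at 140 d for probe 2 (adjusted p of 0.808).

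The arrays lay on 5 slides, and AGTR1 was higher on slide 4 than on slide 3 in each of the 4 groups. On slide 3 the mean was 0.40 in cortisol fetuses at 140 d, 1.01 in controls at 140 d, 0.93 in cortisol fetuses at 130 d and 0.85 in controls at 130 d. On slide 4 it was 1.78, from 1 fetus, in the cortisol group at 140 d and 1.21, also from 1 fetus, in controls at 140 d. At 130 d the means on slide 4 were 1.29 with cortisol and 1.18 in controls. A term for slide beside the groups had a limma adjusted p of 0.317 for AGTR1, and 2.77% of the tested probes were called for slide.

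Within slides, the direction of the older cortisol comparison was not constant. On slides 2 and 3 it set 2 cortisol fetuses against 2 controls. On slide 4 it set 1 against 1, and on slide 5 it set 1 against 3. Cortisol minus control at 140 d was -0.04 on slide 2, -0.61 on slide 3, 0.57 on slide 4 and -0.58 on slide 5. At 130 d it was 0.06, 0.08 and 0.10 on slides 2, 3 and 4. The age difference with cortisol was -0.03, -0.53 and 0.49 on slides 2, 3 and 4, and in controls it was 0.07, 0.16 and 0.02. With slide as a fixed block the cortisol difference was -0.25 at 140 d and 0.08 at 130 d, and the age difference was -0.16 with cortisol and 0.17 in controls, none with an adjusted p under 0.05. Slide 1 held a single array.

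**Figure D3:**
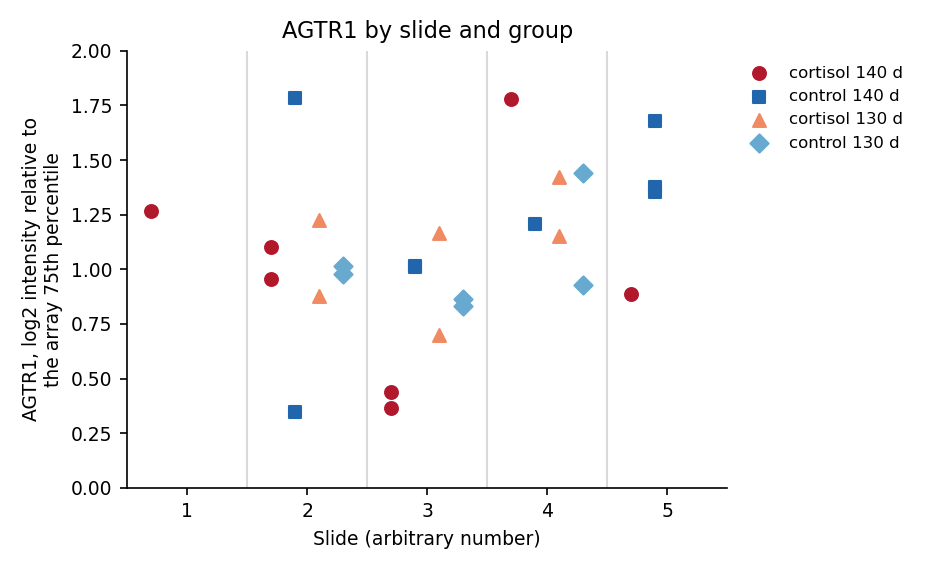
AGTR1 level on each array (vertical axis, log2 intensity relative to the array's 75th percentile) by slide, with symbols for the 4 groups in the order cortisol at 140 d, control at 140 d, cortisol at 130 d and control at 130 d. In each group the mean on slide 4 lies above the mean on slide 3.

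AGTR2, the other angiotensin receptor, was well above background on 27 of 27 arrays with both probes. Probe 1 had intensities of 54.8 to 141 in cortisol fetuses at 140 d, 85.1 to 152 in controls at 140 d, 98.3 to 302 in cortisol fetuses at 130 d and 103.0 to 340 in controls at 130 d. Its level was lowest at -4.06, with a median of -3.65 and a highest value of -2.09, in cortisol fetuses at 140 d. In controls at 140 d the lowest, median and highest were -3.46, -2.90 and -2.53. In cortisol fetuses at 130 d they were -3.51, -2.96 and -1.88, and in controls at 130 d they were -3.63, -2.56 and -1.85. The groups overlapped, and the cortisol group at 140 d reached furthest down.

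No AGTR2 comparison passed the threshold in either probe. With cortisol, 140 d minus 130 d was -0.69 ± 0.30 (SE) for probe 1 (limma adjusted p = 0.123) and -0.93 ± 0.36 for probe 2 (limma adjusted p = 0.0868). Replicate 4 of the cortisol group at 140 d carried the highest AGTR2 level of that group, and without it probe 1 gave -0.91 and a limma adjusted p of 0.0164, which passes. Leaving out this array also raised the probes called in that comparison from 1719 to 2419. The rise was not particular to that comparison. Calls in the control age comparison, to which this array does not belong, rose from 2442 to 3205 in the same fit. In controls the age difference of probe 1 was -0.34 ± 0.29 (limma adjusted p = 0.429). Cortisol minus control was -0.51 ± 0.27 at 140 d (limma adjusted p = 0.808) and -0.17 ± 0.31 at 130 d (limma adjusted p = 1.00) for probe 1. For probe 2 it was -0.69 ± 0.34 at 140 d, with an interval of -1.39 to -0.0007 and a limma adjusted p of 0.808. With normexp background correction the falls were smaller. The age difference with cortisol was then -0.49 for probe 1 and -0.60 for probe 2 (limma adjusted p = 0.542 and 0.471). Cortisol minus control at 140 d was then -0.17 for probe 1 and -0.22 for probe 2. At 130 d the probe 1 difference was 0.19 with normexp, where the median over all tested probes was 0.20.

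The same arrays marked the extremes of both receptors in the older cortisol group. Replicate 4 had its lowest AGTR1 level, 0.36, and its highest AGTR2 level, -2.09, while replicate 6 had its highest AGTR1 level, 1.78, and its lowest AGTR2 level, -4.06. Replicate 4 was also the dimmest of the 27 arrays, with a 75th percentile of 601.6. The cause of these extremes was not tested. After group means were removed, Pearson's r between AGTR1 and AGTR2 probe 1 over 27 arrays was -0.37, and with slide removed as well it was -0.23, as a description of arrays that share slides and scaling. Without the slide step it was -0.36 with probe 2, and the 2 AGTR2 probes had an r of 0.96 with each other.

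**Figure D4:**
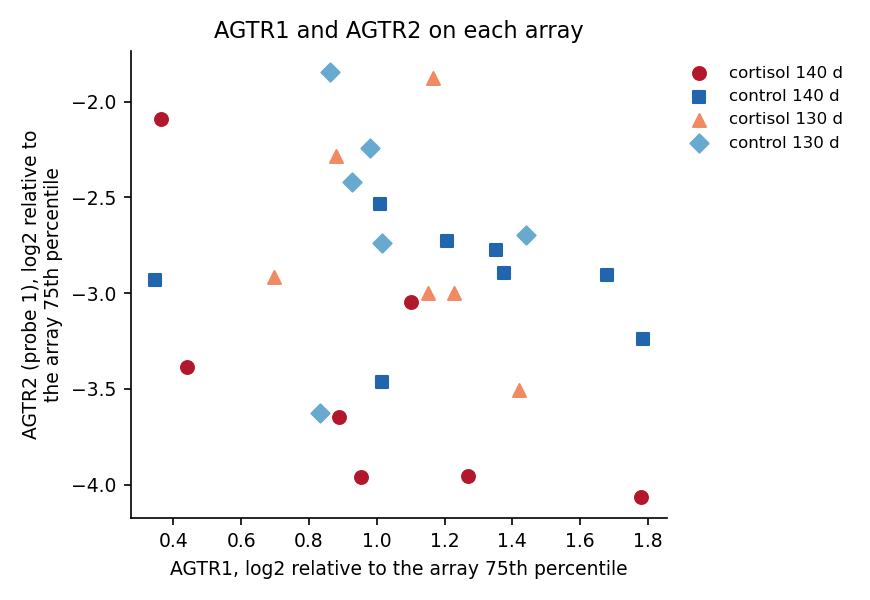
AGTR1 (horizontal axis) against AGTR2 probe 1 (vertical axis) on each of 27 arrays, both as log2 intensity relative to the array's 75th percentile. Cortisol arrays at 140 d run between replicate 4, at 0.36 and -2.09, and replicate 6, at 1.78 and -4.06.

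Of a list of 18 genes of the renin-angiotensin system reported here, 4 were on the array under a name and 3 were tested, namely AGTR1, AGTR2 and CTSD. ACE, which encodes angiotensin-converting enzyme, had 4 probes, each detected above background on at most 1 of 27 arrays, so it was not tested. CTSD encodes cathepsin D, a lysosomal protease able to release angiotensin I from angiotensinogen, and it was well above background on 27 of 27 arrays. Its level was 2.53 to 3.01 in cortisol fetuses at 140 d, 2.59 to 3.05 in controls at 140 d, 2.45 to 2.85 in cortisol fetuses at 130 d and 2.44 to 2.90 in controls at 130 d. These ranges overlap. The age difference was 0.15 ± 0.10 with cortisol (limma adjusted p = 0.352) and 0.19 ± 0.10 in controls (limma adjusted p = 0.163). Cortisol minus control was -0.07 ± 0.09 at 140 d and -0.03 ± 0.10 at 130 d (limma adjusted p = 0.864 and 1.00). Thus, with the probe of highest mean for each gene, 0 of these 3 genes passed in any of the 6 comparisons, where at most 19.1% of all tested probes did. At an unadjusted p under 0.05 in limma there was 1, AGTR2 with age under cortisol, a comparison in which 28.1% of all tested probes reached that level. AGTR2 probe 2 also reached it there and, at 0.0498, for cortisol minus control at 140 d. With normexp neither AGTR2 probe reached it in these comparisons, and the unadjusted limma p of probe 2 was 0.0854 and 0.488.

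Signalling genes downstream of the receptor were represented by 3 of the 33 listed. RGS2 shuts off Gq signalling, RHOA is a small GTPase that the receptor activates, and CYBB is the catalytic subunit of the phagocyte NADPH oxidase. With the probe of highest mean for each gene, 0 of 3 passed in any of the 6 comparisons, and at an unadjusted p under 0.05 in limma 1 did with age in controls and 1 in the change of the cortisol difference with age. Over all tested probes the shares at that level were 33.8% and 5.82%. The age difference of RGS2 was 0.17 ± 0.20 with cortisol and 0.41 ± 0.19 in controls (limma adjusted p = 0.623 and 0.131). With slide as a block the control value was 0.52 with an adjusted p of 0.0474. For RHOA it was 0.13 ± 0.09 with cortisol and -0.16 ± 0.09 in controls (limma adjusted p = 0.384 and 0.230). For CYBB it was 0.03 ± 0.30 with cortisol and -0.59 ± 0.29 in controls (limma adjusted p = 0.969 and 0.152). The other CYBB probe fell by 1.03 in controls, with a limma adjusted p of 0.0115. For cortisol minus control at 140 d that probe gave 0.86 ± 0.26. Its unadjusted limma p there was 0.0033 and its limma adjusted p 0.808, and the difference was 0.31 with normexp. With normexp the control age differences turned to 0.15 and 0.13 for the 2 CYBB probes, and neither passed. The median over all tested probes there was 0.15 with normexp.

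Genes known to respond to angiotensin II were represented by 11 of 24, of which 10 were tested. IL6 was well above background on 1 of 27 arrays and was not tested. In the cortisol comparisons 0 of 10 passed at either age, and at an unadjusted p under 0.05 in limma 1 did at 140 d and 0 at 130 d, against 5.69% and 3.56% of all tested probes. Between the ages with cortisol 1 of 10 passed, against 13.5% of all tested probes, and it was MYC, a growth-promoting transcription factor. In controls 2 of 10 passed, against 19.1% of all tested probes, and they were TGFB1, a cytokine that drives matrix production, and COL3A1, the type III collagen chain. The median age difference of the 10 genes was -0.05 with cortisol and -0.44 in controls, against -0.04 and -0.01 over all tested probes.

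TGFB1 was between -4.33 and -2.30 in control fetuses at 140 d, with a median of -2.77, and between -2.50 and -1.95 in control fetuses at 130 d, with a median of -2.09. All 8 older controls lay below the younger mean, and the ranges overlap. TGFB1 fell by 0.74 ± 0.21 (SE) in controls with age (limma adjusted p = 0.0166), and the value was -0.53 ± 0.22 with cortisol (limma adjusted p = 0.108). With normexp background correction the control value was -0.32 with an adjusted p of 0.509.

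COL3A1 was between -2.60 and -1.81 in control fetuses at 140 d, with a median of -1.94, and between -2.03 and -0.98 in control fetuses at 130 d, with a median of -1.40. The ranges overlap, and all 8 older controls lay below the younger mean. COL3A1 fell by 0.59 ± 0.21 (SE) in controls (limma adjusted p = 0.0494), and the value was -0.59 ± 0.21 with cortisol (limma adjusted p = 0.0670). Of the other 2 COL3A1 probes, 1 passed in both arms, at -0.82 ± 0.25 with cortisol and -0.81 ± 0.24 in controls (limma adjusted p = 0.0275 and 0.0205). With normexp that probe passed in neither arm, at -0.65 with cortisol and -0.50 in controls (limma adjusted p = 0.155 and 0.244). The remaining probe gave -0.63 with cortisol and -0.53 in controls and passed in neither (limma adjusted p = 0.0705 and 0.0945). The control call of the probe of highest mean did not survive 18 of 27 fits that left out 1 array. Those fits gave differences of -0.60 to -0.49 and adjusted p of up to 0.128. The arrays concerned were control replicates 1 to 4 at 130 d, control replicates 1 to 6 and 8 at 140 d, cortisol replicates 2 to 5 at 130 d and cortisol replicates 2, 3 and 5 at 140 d. It was also lost with normexp (-0.42, adjusted p = 0.247), quantile normalization (-0.51, adjusted p = 0.0738), median centring (-0.50, adjusted p = 0.0705) and the deposited value table (-0.49, adjusted p = 0.0769).

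MYC was between 1.06 and 2.47 in cortisol fetuses at 140 d, with a median of 1.59, and between 0.94 and 1.20 in cortisol fetuses at 130 d, with a median of 1.09. The ranges overlap, and 6 of 7 older fetuses lay above the younger mean. MYC rose by 0.63 ± 0.21 (SE) with cortisol (limma adjusted p = 0.0469), and the value was -0.08 ± 0.20 in controls (limma adjusted p = 0.826). The other MYC probe gave 0.49 ± 0.20 with cortisol and did not pass (limma adjusted p = 0.0957). The difference between the arms in this change was 0.70 ± 0.29 and did not pass (limma adjusted p = 0.734). The call did not survive 16 of 27 fits that left out 1 array, with differences of 0.50 to 0.65 and adjusted p of up to 0.0944. The arrays concerned were control replicates 3 and 6 at 130 d, control replicates 4 to 7 at 140 d, cortisol replicates 1 to 6 at 130 d and cortisol replicates 2, 4, 6 and 7 at 140 d. It was also lost with normexp (0.53, adjusted p = 0.196), quantile normalization (0.59, adjusted p = 0.0628) and slide as a block (0.63, adjusted p = 0.0664).

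The other genes known to respond to angiotensin II did not pass in any comparison. TIMP1, an inhibitor of matrix metalloproteinases, had age differences of -0.69 ± 0.33 with cortisol and -0.60 ± 0.32 in controls. COL1A2, a type I collagen chain, had -0.50 ± 0.30 with cortisol and -0.51 ± 0.29 in controls. EDN1, the precursor of the vasoconstrictor endothelin 1, had -0.12 ± 0.24 with cortisol and -0.37 ± 0.23 in controls. EGR1, an early-response transcription factor, had 0.15 ± 0.14 with cortisol and 0.27 ± 0.14 in controls, and the control value was 0.39 with an adjusted p of 0.0499 with slide as a block. FOS, another early-response factor, had 0.96 ± 0.85 with cortisol and -1.28 ± 0.82 in controls. Single arrays reached 4.07 for FOS in cortisol fetuses at 140 d and 4.78 in control fetuses at 130 d. RCAN1, an inhibitor of the phosphatase calcineurin, had 0.02 ± 0.15 with cortisol and 0.04 ± 0.15 in controls. STAR, which carries cholesterol into mitochondria for steroid synthesis, was well above background on 11 of 27 arrays, and its age differences were 0.11 ± 0.71 with cortisol and 1.14 ± 0.69 in controls.

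**Figure D5:**
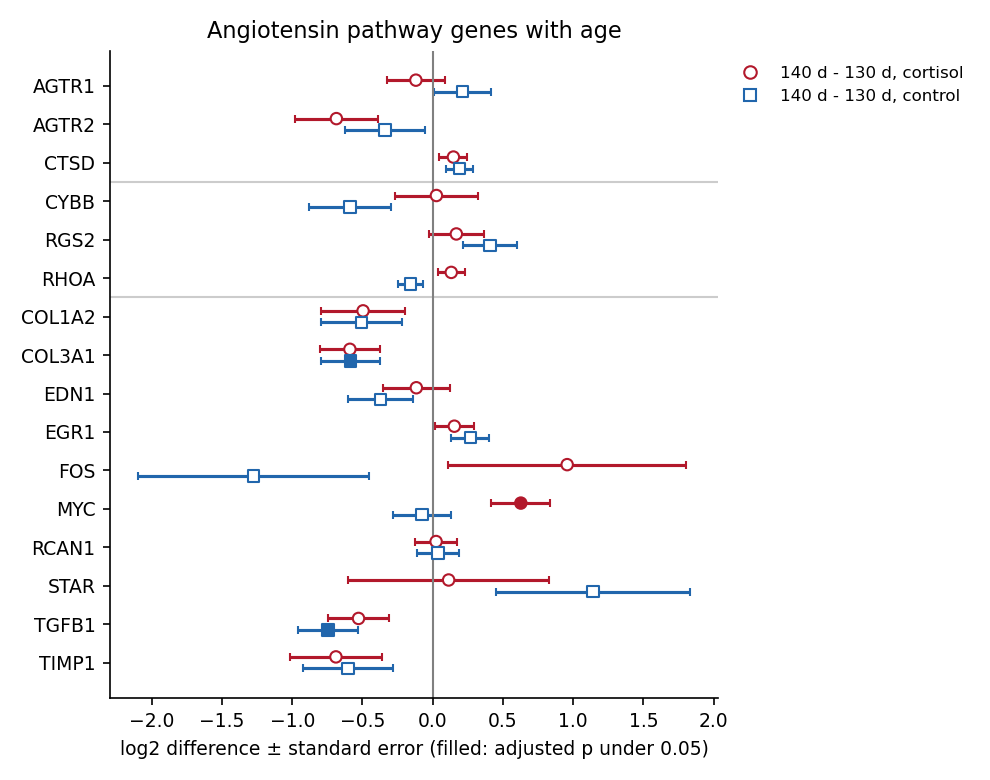
Log2 difference of 140 d minus 130 d with its standard error (horizontal axis) for the tested genes of the renin-angiotensin system (top), of signalling (middle) and of those known to respond to angiotensin II (bottom), with cortisol (circles) and in controls (squares). Filled symbols have an adjusted p under 0.05, which MYC has with cortisol at 0.63 and TGFB1 and COL3A1 have in controls at -0.74 and -0.59.

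Markers of several cell types moved with age in controls, where TGFB1 and COL3A1 fell and 19.1% of all tested probes were called (9.77% higher and 9.35% lower). Immune markers fell in 3 of 5 tested (ITGB2, FCER1G and LYZ), with a summed linear level of 0.597 to 0.939 in controls at 140 d against 0.939 to 2.82 in controls at 130 d. CD4 was well above background on 0 arrays. Red cell markers fell in 2 of 2, with sums of 3.02 to 28.0 against 16.8 to 56.4. Adipocyte markers rose in 3 of 4, with sums of 4.56 to 8.42 against 2.80 to 5.55. MB rose by 0.48 ± 0.15 (limma adjusted p = 0.0282). Of 5 fibroblast markers 1 fell, COL3A1 itself, with sums of 80.6 to 183 against 142 to 222. Of 4 endothelial markers and 1 mural marker, CNN1, 0 passed. These marker calls are from the main fit. With normexp 536 probes were called in this comparison, against 2442, and the COL3A1 call was lost (limma adjusted p = 0.247).

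With cortisol, where MYC rose and 13.5% of all tested probes were called (4.94% higher and 8.52% lower), 2 of 4 adipocyte markers rose with age, with sums of 4.34 to 7.70 at 140 d against 2.40 to 3.91 at 130 d. Of 4 endothelial markers 1 rose, FLT1, at 1.46 ± 0.27, while KDR was -0.54 ± 0.19 and NOS3 -0.34 ± 0.14, neither past the threshold, and the sums were 3.95 to 6.83 at 140 d against 3.28 to 4.57 at 130 d. No immune, red cell, fibroblast, mural or cardiomyocyte marker passed there with its probe of highest mean (0 of each), although another probe of the fibroblast marker COL3A1 did. That COL3A1 probe did not pass with normexp (-0.65, limma adjusted p = 0.155). The marker calls are from the main fit, and normexp called 339 probes in this comparison, against 1719. The part of these cell types in the results was not tested, and in whole tissue fewer cells of a type and less RNA per cell cannot be told apart.

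Other transcripts were ranked by how closely they followed AGTR1 from fetus to fetus within groups. Over 27 arrays, with group means removed, Pearson's r with AGTR1 was highest among 685 named genes for IGF1R, the receptor of insulin-like growth factor 1, at 0.67. It was followed by RPN2, a subunit of the oligosaccharyltransferase, at 0.67, and PPIA, the prolyl isomerase cyclophilin A, at 0.66. DNMT1, the maintenance DNA methyltransferase, had 0.60 and UBA1, the ubiquitin-activating enzyme, had 0.58. The lowest were LPAR1, a receptor for lysophosphatidic acid, at -0.69, AQP4, a water channel, at -0.63, and SHMT2, a mitochondrial enzyme of serine metabolism, at -0.60. The other probe of LPAR1 gave -0.23. With slide removed as well, r was 0.77 for IGF1R and -0.68 for LPAR1. The median r over the 685 genes was -0.07, and the arrays share slides and a common scaling. AGTR1 had an r of 0.09 with the array's log2 75th percentile.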

How the data were processed

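Per the submitters' processing notes, the 27 array images were read by Agilent Feature Extraction 10.1.1.1. The deposited spot intensity had its background subtracted and its spatial trend removed, with no scaling across arrays, per the file headers. The authors also deposited a table of log2 values. Each of its columns differed from log2 processed intensity by a single constant, with residuals of at most 2.1e-06 (SD). Column medians lay between 0.09 and 0.12, and how the constant was chosen is not given in the sources used here.

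From these, log2 intensity minus each array's 75th percentile over the 15208 non-control spots was computed. Outlying spots were removed and spots of a probe averaged. Of all probes, 12770 passed a minimum of 6 arrays well above background and were fitted with limma 3.58.1 in R 4.3.3, 4 groups in 1 fit, with calls at an adjusted p under 0.05. Of these, 1054 probes (8.25%) could be named, for 697 genes, and a gene with several probes was represented by the one with the highest mean. Exact permutation tests counted every relabeling with numpy 2.4.6 and were two-sided. Alternatives were normexp, quantile or median scaling, the deposited values, other filters on dim probes, outlying spots kept, the compared groups alone, a robust trended fit, array weights, slide or replicate number as a block, and leaving out each array. The fit was tested on simulated data. All arrays were scanned on 1 day.

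The members and lists were chosen with earlier results of these data known. All tested members of the system list were to be named, with members of the other lists that passed, or the 3 of smallest p in the control age comparison, and the 5 highest and 3 lowest correlations with AGTR1. The remaining genes of the list known to respond to angiotensin II, the slide term and the cell type markers were given in addition. Of the system list, 1 further member is not reported here. The labels do not say that same-numbered fetuses were related.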

Additional observations from a re-analysis of the deposited data

Results flagged for a closer look

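In the control group at 130 d, replicate 5 had an AGTR1 level of 1.44, while the next highest of the 6 fetuses had 1.02. The gap took up 0.700 of the group's range, above the critical value of 0.625 in Dixon's test. It was 1 of 20 group-by-probe sets tested over AGTR1, AGTR2 and CTSD, a number at which chance gives about 1. Without this array the cortisol difference at 130 d was 0.17 and the age difference in controls was 0.30, neither past the threshold.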

How the results depend on the processing

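Over 267 alternative values of the 6 AGTR1 comparisons, 0 passed the threshold and the smallest adjusted p was 0.164, for the control age difference with array weights. In 262 of them the direction was kept, and 5 reversed, all within single slides. Many of the 262 could not differ from the main value, so the count does not measure how stable the direction is. Leaving out an array of a group not compared, or changing only the filter, the estimate of spread or the test, left the difference as it was. Within slide 4 the cortisol difference at 140 d was 0.57, its mean over the ages 0.34, its change with age 0.47 and the age difference with cortisol 0.49, and within slide 2 the mean over the ages was 0.0085. The cause was not tested. Leaving out each array in turn gave -0.39 to -0.15 for cortisol at 140 d, 0.01 to 0.17 at 130 d, -0.25 to -0.02 for age with cortisol, 0.13 to 0.34 for age in controls, -0.47 to -0.23 for the change of the cortisol difference with age and -0.15 to -0.03 for its mean. For cortisol at 140 d the unadjusted limma p was 0.206 in the main fit, 0.287 with normexp and 0.038 with array weights. It was 0.044 without control replicate 1 and 0.045 without cortisol replicate 6 at 140 d, and above 0.05 in the other leave-one-out fits. Within slide 3 it was 0.024 and within slide 2 it was 0.932. Same-numbered fetuses had correlations of -0.17 to 0.36 between their deviations from the group means. Some of these pairs shared a slide, and differently numbered fetuses were not set beside them. These values therefore do not decide whether the numbers mark a relation. With the replicate block AGTR1 gave -0.19 for cortisol at 140 d, 0.08 at 130 d, -0.13 for age with cortisol, 0.13 for age in controls, -0.27 for the change of the cortisol difference with age and -0.05 for its mean. Probes called numbered 339 with cortisol and 536 in controls between the ages with normexp, against 1719 and 2442, and normexp put the median difference of all probes at 0.15 in controls, against -0.01. The change of the cortisol difference with age had 0 called probes, 1 with the replicate block and 0 to 2 on leaving out arrays (1 without control replicate 5 at 130 d, 2 without control replicate 6 at 140 d). Among values added after the data were seen, normexp reversed AGTR2 at 130 d (0.19) and CYBB with age in controls (0.15). Both values lay near the normexp medians of all tested probes, 0.20 for cortisol minus control at 130 d and 0.15 for age in controls. In the main fit those medians were 0.01 and -0.01. CTSD at 130 d ran between -0.073 and 0.022 on leaving out arrays. A mean over AGTR1 probes could not be run, since there was 1. The number of arrays limits the precision of every interval, and STAR was well above background on 11 of 27 arrays.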

Other observations

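The balance of the 2 angiotensin receptors was compared as AGTR1 minus AGTR2 probe 1 on each array, a measure chosen after the data were seen. It sets 1 probe's signal against another's, so differences between groups are given and the level itself has no meaning. With cortisol, 140 d minus 130 d was 0.57, and in controls it was 0.55, with exact permutation p of 0.309 and 0.114. Cortisol minus control was 0.26 at 140 d and 0.25 at 130 d, with exact permutation p of 0.565 and 0.532. Adjusted over the 4 comparisons the smallest p was 0.454. With AGTR2 probe 2 the age difference in controls was 0.68 with an exact permutation p of 0.0669, and with normexp values it was 0.30 with an exact permutation p of 0.270. With normexp values cortisol minus control turned to -0.06 at 140 d and -0.15 at 130 d.

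A spot of ACE stood out on 1 array. A probe for the somatic form had an intensity of 426 in control replicate 1 at 130 d, where the other 5 arrays of the group reached at most 14.2. The scanner files flag this spot as an outlier, so it was among the spots removed. It was also the only array on which that probe was well above background. A probe for the same form, shifted by 1 base along the transcript, had 3.59 in control replicate 1 at 130 d and at most 17.1 in that group.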
